A study of Homo sapiens with 7 samples.

Results

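The 5 in vivo sublines of the human prostate cancer line PC-3, each recovered from an organ of an injected mouse, were set against TEM4-18, a PC-3 subline selected in vitro for crossing a layer of endothelial cells. All 7 arrays of the series enter this comparison, with 1 array for each of the 5 in vivo sublines and 2 arrays for TEM4-18. Of 13640 genes tested, 877 (6.43%) were higher in all 5 in vivo sublines than on both TEM4-18 arrays, with every in vivo signal above background, and 887 (6.50%) were lower in all 5 than on both TEM4-18 arrays, with both TEM4-18 signals above background. These 1764 genes (12.9%) are described here, and their direction follows from how they were chosen. Regardless of level, 1305 genes (9.57%) were above and 956 (7.01%) below TEM4-18 in all 5. Background was put at a signal of 536.9, which is 2 times the median of all values on the arrays.

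GS672.Ug came from a urogenital site of a mouse given PC-3 cells into a vein. GS683.LALN and JD1203.Lu came from mice given TEM4-18, GS683.LALN from the left axillary lymph node by its own description (lung by the design text) and JD1203.Lu from the lung. GS689.Li and GS694.LAd came from the liver and the left adrenal gland after injection of JD549.Ki, a kidney subline of PC-3, so that both share a parent. TEM4-18 was made from PC-3 by passage across a confluent layer of human lung microvascular endothelial cells. For JD1203.Lu the source name is given as JD549.Ki, which conflicts with the TEM4-18 parentage in its description, and the description of GS694.LAd gives JD549.Ki as the name of the line itself. All 7 cultures carried luciferase and were grown untreated in DMEM/F12 with serum. RNA came from these cultures, so in vivo names the sublines here and not cells measured in the animal. Each in vivo subline is 1 line from 1 site, and PC-3 and JD549.Ki themselves are not analysed here. The labels do not say that the TEM4-18 duplicates were separate cultures, so their spread may be technical, and p-values rest on these 7 arrays alone.

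PC-3 is an androgen-independent line, and crossing of the endothelium is one of the steps by which blood-borne tumour cells enter an organ. Growth in an organ asks more of a cell than this one step, including survival, protease control and renewed division. Some of the gene groups below belong to the cell cycle: the MCM proteins form the helicase that unwinds DNA at replication origins, and the kinesins, checkpoint kinases and CDC20 move and separate chromosomes in mitosis. Genes of the first kind are often bound by E2F factors and genes of the second kind by complexes that read the cell cycle homology region (CHR). A further group, secreted by epithelia, holds elafin, trefoil peptides and the disulfide isomerase AGR2.

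The promoters of 4 cell cycle genes that were lower in all 5 in vivo sublines are shown because their lists held the largest shares, among the lists described, of genes lower in all 5 without overlap. Each is the RefSeq window on GRCh38.p14 from 250 bases before to 50 bases after the start, written 5′ to 3′ on the gene's strand, with E2F-type motifs (TTTCCCGC, TTTGGCGC, TTTCGCGC or TTTGCCGC) and the CHR motif (TTTGAA) in capitals wherever they occur on either strand. MCM7 lies at chr7:100101348-100101647 on the minus strand and CDC20 at chr1:43358731-43359030 on the plus strand. KIF15 lies at chr3:44761544-44761843 and KIF11 at chr10:92592880-92593179, both on the plus strand.
MCM7: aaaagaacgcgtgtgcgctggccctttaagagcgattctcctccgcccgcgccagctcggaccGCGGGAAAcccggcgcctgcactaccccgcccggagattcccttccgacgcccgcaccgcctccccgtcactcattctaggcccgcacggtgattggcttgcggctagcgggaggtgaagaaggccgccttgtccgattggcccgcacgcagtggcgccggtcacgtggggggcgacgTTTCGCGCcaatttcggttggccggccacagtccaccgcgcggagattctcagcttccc
CDC20: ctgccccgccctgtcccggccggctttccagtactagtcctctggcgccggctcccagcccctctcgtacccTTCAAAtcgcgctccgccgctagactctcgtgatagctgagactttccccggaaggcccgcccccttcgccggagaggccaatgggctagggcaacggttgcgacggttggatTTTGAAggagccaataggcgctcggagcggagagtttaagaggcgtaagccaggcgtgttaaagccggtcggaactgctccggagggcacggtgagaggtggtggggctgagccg
KIF15: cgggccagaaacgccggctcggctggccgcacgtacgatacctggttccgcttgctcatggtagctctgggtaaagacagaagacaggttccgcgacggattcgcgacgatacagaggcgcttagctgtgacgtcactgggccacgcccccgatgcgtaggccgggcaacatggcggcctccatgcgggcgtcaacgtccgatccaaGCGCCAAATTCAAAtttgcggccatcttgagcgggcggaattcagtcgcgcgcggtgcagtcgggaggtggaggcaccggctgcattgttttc
KIF11: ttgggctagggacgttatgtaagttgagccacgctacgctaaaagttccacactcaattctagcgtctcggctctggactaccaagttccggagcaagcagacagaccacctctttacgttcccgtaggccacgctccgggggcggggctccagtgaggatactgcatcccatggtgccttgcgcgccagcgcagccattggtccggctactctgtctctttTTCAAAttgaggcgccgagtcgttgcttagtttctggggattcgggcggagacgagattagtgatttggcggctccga
The MCM7 window holds 2 E2F-type matches, the CDC20 window 2 CHR matches and the KIF11 window 1 CHR match. In the KIF15 window, 1 E2F-type match runs directly into 1 CHR match. An E2F-type motif stood in 14 of 30 promoters of the replication list (46.7%), against 5.17% of the 10996 promoters of tested genes and 3.33% of all 27303 promoters in the table. The CHR motif stood in 23 of 33 promoters of the mitosis list (69.7%), against 10.2% of the promoters of tested genes. Among the members lower in all 5 in vivo sublines, 5 of 10 replication promoters held an E2F-type motif and 12 of 19 mitosis promoters (63.2%) held a CHR motif. The motif shares of the members that were lower were thus near those of their whole lists. A match of letters describes the window and is not a measured binding site.

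In limma, no gene passed an adjusted p of 0.05 in the comparison of the 5 in vivo sublines with TEM4-18 (0 of 13640, 0.00%). At an unadjusted p under 0.05 there were 1136 genes (8.33%), and the lowest adjusted p was 0.0604. Without GS683.LALN, 14 genes passed, PI3, AGR2, TFF1 and FKBP1B among them. The sizes below are therefore descriptions of genes chosen by the same contrast, and none of them passed the test. The median log2 difference over all tested genes was 0.03, with 7357 genes higher and 6283 lower in the in vivo sublines. Among the chosen genes, the median size was 0.433 on the log2 scale for those higher and 0.366 for those lower, against 0.211 for all tested genes. At least a 2-fold difference was seen for 83 of the 877 higher genes and 29 of the 887 lower genes, and at least 4-fold for 14 and 3. Most gaps between the groups were narrow: the lowest array of the higher side was a median of 1.08-fold above the highest array of the lower side for the higher genes and 1.07-fold for the lower genes. A gap of 2-fold or more was found for 18 higher genes (0.132%) and for 1 lower gene (0.00733%). Spread between the TEM4-18 duplicates bears on every gap, since 573 genes were 2-fold or more apart between them.

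PI3 encodes elafin, a WAP-domain inhibitor of neutrophil elastase, and lies on chromosome 20. Its signal was 6281 in urogenital GS672.Ug, 2464 in lymph node GS683.LALN, 9689 in liver GS689.Li, 9757 in adrenal GS694.LAd and 4150 in lung JD1203.Lu, against 226 and 252 on the TEM4-18 arrays. All 5 in vivo sublines stood far above both TEM4-18 arrays, the liver and adrenal lines highest and the lymph node line lowest. The log2 difference was 4.33 ± 0.49 (SE, 5 and 2 arrays; limma adjusted p = 0.0604). A second probe set of PI3 gave a difference of 4.58 with no overlap.

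On chromosome 3, the neighbouring AADAC and AADACP1 showed a similar gap. AADAC, an esterase of the endoplasmic reticulum, had signals of 556 in urogenital GS672.Ug, 1111 in lymph node GS683.LALN, 683 in liver GS689.Li, 952 in adrenal GS694.LAd and 2410 in lung JD1203.Lu, against 30.5 and 46.4 on the TEM4-18 arrays. AADACP1, a transcribed pseudogene, had 2001, 5482, 2000, 2352 and 9450 in the same order of sublines, against 183 and 109 in TEM4-18. Both were highest in JD1203.Lu and next in GS683.LALN, the sublines grown from TEM4-18 itself, and neither overlapped with TEM4-18. The log2 differences were 3.62 ± 0.49 for AADAC (adjusted p = 0.0846) and 4.21 ± 0.59 for AADACP1 (adjusted p = 0.0959). The genes are related in sequence, and signal shared between their probe sets was not tested. Of their tested neighbours in the RefSeq order, IGSF10 differed by 0.82 and MBNL1-AS1 by 0.63, while MBNL1 differed by 0.01.

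Genes of secretory epithelium stood among those of largest gap. AGR2, a disulfide isomerase needed for mucin folding, had signals of 10160 in urogenital GS672.Ug, 4718 in lymph node GS683.LALN, 12640 in liver GS689.Li, 14390 in adrenal GS694.LAd and 9785 in lung JD1203.Lu, against 1513 and 1288 in TEM4-18. TFF1, a secreted trefoil peptide, had 3559, 1556, 6061, 4634 and 3947 in the same sublines, against 635 and 612 in TEM4-18. GS683.LALN was the lowest in vivo subline for both genes and still lay above both TEM4-18 arrays. The log2 differences were 2.75 ± 0.37 for AGR2 (adjusted p = 0.0846) and 2.45 ± 0.43 for TFF1 (adjusted p = 0.206). They were the only 2 of 13 measured genes on the secretory epithelium list that did not overlap (15.4%, against 6.43% of all tested genes). The median difference of the list was 0.15.

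SDC1, NPY1R and DNER, which encode proteins of the cell surface, were also among the 15 of widest gap. SDC1, the heparan sulfate proteoglycan syndecan-1, had signals of 51853 in urogenital GS672.Ug, 31901 in lymph node GS683.LALN, 26697 in liver GS689.Li, 24562 in adrenal GS694.LAd and 23761 in lung JD1203.Lu, against 9106 and 9273 in TEM4-18. Here GS672.Ug was highest, and the lowest subline was 2.55-fold above the higher TEM4-18 array. NPY1R, a receptor for neuropeptide Y, was highest in GS689.Li (7172) and lowest in GS683.LALN (707), against 147 and 213 in TEM4-18. DNER, a transmembrane protein with EGF repeats, ran from 717 in GS683.LALN to 2520 in GS694.LAd, against 219 and 171. The adjusted p was 0.161 for SDC1, 0.363 for NPY1R and 0.214 for DNER, with log2 differences of 1.72 ± 0.27, 2.97 ± 0.75 and 2.47 ± 0.44.

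UBE2QL1, a protein of the ubiquitin-conjugating type on chromosome 5, had signals of 36706, 23837, 46726, 55884 and 25103 in GS672.Ug, GS683.LALN, GS689.Li, GS694.LAd and JD1203.Lu, against 7218 and 6665 in TEM4-18. FKBP1B, an immunophilin that binds ryanodine receptors, had 1857, 1577, 1981, 2245 and 2044, against 605 and 515. The zinc finger gene ZNF415 had 1482, 978, 1926, 1948 and 1624, against 227 and 305. For each of these genes every in vivo subline exceeded both TEM4-18 arrays by 2-fold or more. The log2 differences were 2.35 ± 0.32 for UBE2QL1 (adjusted p = 0.0846), 1.71 ± 0.19 for FKBP1B (adjusted p = 0.0604) and 2.36 ± 0.28 for ZNF415 (adjusted p = 0.0694). The remaining genes of the 15 with the widest gap were MAGEA6, TMEM200A, TBC1D8B and SYTL2, with log2 differences between 1.52 and 4.17. MAGEA6, a cancer-testis antigen, ran from 1130 in GS683.LALN to 14652 in GS694.LAd, against 170 and 115 in TEM4-18, and belongs to a family of near-identical copies whose probe sets may share signal. SYTL2, an effector of the secretory GTPase RAB27, was highest in JD1203.Lu (15073) and lowest in GS694.LAd (7439), against 3380 and 3346.

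**Figure D1:**
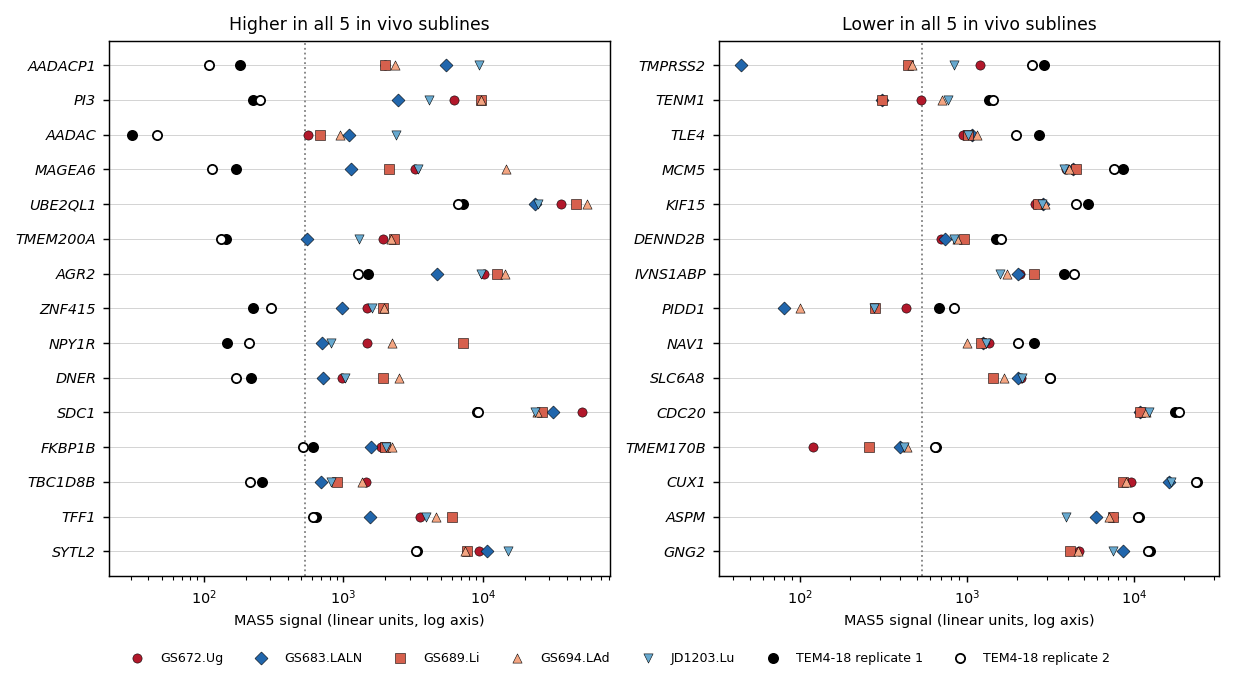
MAS5 signal on a log axis for the 15 genes with the widest gap in each direction, with 1 point for each array: coloured points are the 5 in vivo sublines, black and white circles the TEM4-18 duplicates, and the dotted line the background of 536.9. On the left every coloured point lies above both TEM4-18 circles, as PI3 does with 2464 to 9757 against 226 and 252, and on the right every coloured point lies below them with narrower gaps.

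TMPRSS2, a membrane-anchored serine protease that androgen induces in the prostate, had the widest gap among genes lower in the in vivo sublines. Its signal was 1193 in urogenital GS672.Ug, 44.6 in lymph node GS683.LALN, 446 in liver GS689.Li, 471 in adrenal GS694.LAd and 837 in lung JD1203.Lu, against 2887 and 2439 in TEM4-18. Only GS672.Ug and JD1203.Lu were above background, and GS683.LALN stood far below the other sublines. The log2 difference was -2.49 ± 0.82 (adjusted p = 0.475), and both other probe sets of TMPRSS2 were also lower without overlap, with differences of -1.20 and -1.58. KLK3, the gene of prostate-specific antigen and also induced by androgen, went the other way: 1347, 1249, 1339, 1286 and 1143 in the 5 sublines against 730 and 787 in TEM4-18. These were the only members without overlap on the list of luminal prostate genes, of which 7 measured genes were higher and 7 lower. Each made 7.14% of the measured list, near the 6.43% higher and 6.50% lower of all tested genes.

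TLE4, a Groucho corepressor, had signals of 951 in urogenital GS672.Ug, 1075 in lymph node GS683.LALN, 1016 in liver GS689.Li, 1144 in adrenal GS694.LAd and 1015 in lung JD1203.Lu, against 2695 and 1976 in TEM4-18. The sublines stood close together and the TEM4-18 duplicates differed more than the sublines did. Its log2 difference was -1.12 ± 0.19 (adjusted p = 0.186). TLE2, another Groucho corepressor, was higher in all 5, with 848, 756, 1869, 1857 and 732 against 469 and 468. On the list of Groucho corepressors and Notch targets, 13 of 19 measured genes were higher, and NOTCH2 was the other member lower without overlap. Members lower without overlap made 10.5% of the list, against 6.50% of all tested genes. TLE2 was the 1 member higher without overlap and above background (5.26%, against 6.43%). Other probe sets of NOTCH2 (-0.34, -0.14 and -0.29), TLE2 (0.93) and 1 of TLE4 (-0.40) overlapped.

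Other lower genes with wide gaps were TENM1, a teneurin (309 to 766 in vivo against 1349 and 1430), IVNS1ABP, a kelch-domain protein (1578 to 2514 against 3827 and 4379), and SLC6A8, the creatine transporter (1437 to 2145 against 3142 and 3136). PIDD1, a death-domain protein that assembles a caspase-activating complex, ran from 80.2 in GS683.LALN to 433 in GS672.Ug, against 678 and 842. DENND2B, NAV1 and TMEM170B were also among the 15 of widest gap, at -0.89, -0.86 and -0.99. CUX1, a homeodomain factor, and GNG2, a G protein gamma subunit, split by lineage within the in vivo group. CUX1 had 8614, 8933 and 9539 in GS689.Li, GS694.LAd and GS672.Ug and 16257 and 16649 in GS683.LALN and JD1203.Lu, against 23708 and 23529 in TEM4-18. The probe sets of a gene did not all go together: all 7 other probe sets of NAV1 overlapped between the groups. Both others of GNG2 overlapped and were higher by their mean, at 0.20 and 0.13, against -1.11 for the one used. Other probe sets of CUX1 overlapped at -0.88 and -0.93 and were lower without overlap at -0.87 and -1.14. In the one at -0.88, JD1203.Lu had 11776, above the TEM4-18 values of 11072 and 10966. The other probe set of PIDD1 also overlapped, at -0.21.

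As a group, genes of DNA replication were lower in the in vivo sublines. Of 33 measured members of the replication list, 31 were lower and 2 higher, and the median log2 difference was -0.38, against 0.03 for all genes. Of these, 11 (33.3%) were lower in all 5 sublines with no overlap, against 6.50% of all tested genes, and none was higher without overlap. None passed the test, and 10 had an unadjusted p under 0.05. By subline, the list median was -0.0854 in GS672.Ug and -0.119 in GS683.LALN, and -0.392 to -0.574 in the others.

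MCM5, a subunit of the replicative helicase, had signals of 3913 in urogenital GS672.Ug, 4312 in lymph node GS683.LALN, 4490 in liver GS689.Li, 4106 in adrenal GS694.LAd and 3823 in lung JD1203.Lu, against 8593 and 7581 in TEM4-18. MCM7, another subunit, had 8556, 10295, 7090, 7033 and 7727 in the same order, against 13832 and 14274. The in vivo values of MCM5 lay within a narrow band well below both TEM4-18 arrays. The log2 differences were -0.96 ± 0.14 for MCM5 (adjusted p = 0.129) and -0.80 ± 0.17 for MCM7 (adjusted p = 0.248), and a second probe set of MCM5 gave -0.95. MCM3 and MCM6 did not overlap either, at -0.43 and -0.41. Outside the helicase, RFC2 of the clamp loader differed by -0.76, the flap endonuclease FEN1 by -0.58, the helicase partner CDC45 by -0.56 and the polymerase subunit POLA1 by -0.48. CDC7, RRM1 and TYMS completed the 11, and the gap of CDC7 was 1.00-fold, which is barely a separation. Without the first TEM4-18 array, 17 members were lower without overlap. Over all tested genes, that count rose from 887 to 1413, as fewer arrays must separate.

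Mitotic genes were also lower in the in vivo sublines. Of 38 measured members of the mitosis list, 36 were lower and 2 higher, with a median of -0.33. Of the 38, 22 (57.9%) were lower in all 5 sublines without overlap, against 6.50% of all tested genes. Some of these barely separated: the gap was 1.0-fold for BUB1 and PTTG1 and 1.02-fold for KIF2C. CDC20, which activates the anaphase-promoting complex, had signals of 11281 in urogenital GS672.Ug, 10853 in lymph node GS683.LALN, 10818 in liver GS689.Li, 11823 in adrenal GS694.LAd and 12336 in lung JD1203.Lu, against 17614 and 18680 in TEM4-18. KIF15, a spindle kinesin, had 2540, 2839, 2654, 2914 and 2797, against 5296 and 4509. Both genes had in vivo values close to each other and a clear gap to TEM4-18. Their log2 differences were -0.67 ± 0.12 and -0.82 ± 0.15 (adjusted p = 0.214 for each).

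The kinetochore genes NDC80, NUF2, CENPE and CENPF differed by -0.66, -0.51, -0.49 and -0.57, and the spindle kinesin KIF11 by -0.57. ASPM, which organises the spindle pole, was lowest in JD1203.Lu (3933, against 10746 and 10572 in TEM4-18). AURKA and TOP2A, a mitotic kinase and a topoisomerase, differed by -0.44 and -0.30. Other probe sets of AURKA overlapped, at -0.21 and -0.11. ESPL1, the separase that cleaves cohesin, was the 1 member higher without overlap, with 6696, 6312, 7767, 8589 and 6023 in the 5 sublines against 5367 and 5332. DLGAP5, a spindle assembly protein on chromosome 14, overlapped because GS683.LALN had 43904, above the TEM4-18 values of 37238 and 41333, while GS689.Li, GS694.LAd and GS672.Ug had 11727 to 13006. None of the 38 passed the test, and 15 had an unadjusted p under 0.05. In bulk RNA, fewer cells in cycle and less RNA per cell cannot be told apart. Culture density or time of harvest is not given in the labels, and its part in these values was not tested.

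**Figure D2:**
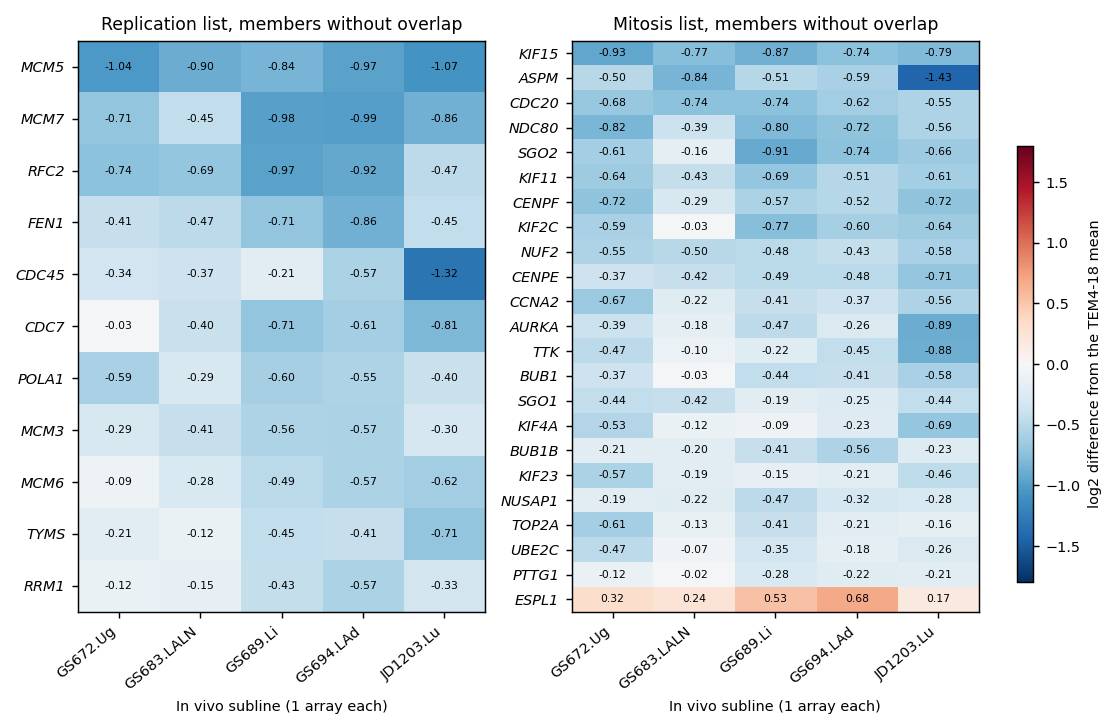
Log2 difference of each in vivo subline from the mean of the TEM4-18 duplicates (colour and printed value), for the members of the replication list (left) and the mitosis list (right) that did not overlap with TEM4-18. MCM5 runs from -1.07 in JD1203.Lu to -0.84 in GS689.Li, many mitotic genes are nearest to 0 in GS683.LALN, and ESPL1 is the only row above 0.

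CDKN1A encodes p21, an inhibitor of cyclin-dependent kinases that halts the cycle. Its signal was 2505 in urogenital GS672.Ug, 2004 in lymph node GS683.LALN, 3716 in liver GS689.Li, 3275 in adrenal GS694.LAd and 2367 in lung JD1203.Lu, against 661 and 976 in TEM4-18. Every in vivo subline was at least 2-fold above both TEM4-18 arrays, and the log2 difference was 1.69 ± 0.27 (adjusted p = 0.156). On the list of inhibitors and G1 cyclins, CDKN1A included, 10 of 17 were higher and the median was 0.02. The other inhibitors, CDKN1B, CDKN1C, CDKN2A, CDKN2B and CDKN2D, were higher by their mean, at 0.01, 0.37, 0.02, 0.48 and 0.05, and all overlapped with TEM4-18. RBL1, a pocket protein, and CCND1, cyclin D1, were lower without overlap at -0.56 and -0.27 (11.8%, against 6.50% of all tested genes). Another probe set of CCND1 overlapped, at -0.12.

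Serpins, a family of protease inhibitors, were mostly higher. Of 11 measured, 9 were higher, with a median of 0.40, and 4 (36.4%) were higher without overlap, against 6.43% of all tested genes. SERPINB7 had 19678, 17355, 13620, 16559 and 11066 in GS672.Ug, GS683.LALN, GS689.Li, GS694.LAd and JD1203.Lu, against 6593 and 7024 in TEM4-18. SERPINI1, neuroserpin, differed by 1.10 and SERPINB8 by 0.66. SERPINB5, maspin, was 7318, 7644 and 8477 in GS689.Li, GS694.LAd and GS672.Ug but 1509 and 1554 in GS683.LALN and JD1203.Lu, against 1183 and 1154. SERPINH1, a collagen chaperone, was the 1 serpin lower without overlap, at -1.07. The WAP-domain list had 3 of 6 genes higher, its median was 0.138 (-0.0462 without the first TEM4-18 array), and SLPI, the secretory leukocyte protease inhibitor, was higher in all 5 (299 to 826 against 199 and 259) but below background in GS683.LALN and JD1203.Lu.

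Of 21 measured plasminogen activators, metalloproteinases and TIMPs, 13 were higher. Above background, 4 (19%) were higher without overlap, against 6.43% of all tested genes. The median was 0.125, and 0.00427 without the second TEM4-18 array. PLAT, tissue plasminogen activator, had 37195 in urogenital GS672.Ug, 2535 in lymph node GS683.LALN, 24238 in liver GS689.Li, 11275 in adrenal GS694.LAd and 10041 in lung JD1203.Lu, against 1562 and 2189 in TEM4-18. GS683.LALN lay just above TEM4-18, so that the log2 difference of 2.68 ± 0.83 carried a wide error (adjusted p = 0.456). ADAMTS1, a secreted metalloproteinase, differed by 0.98, MMP14, a membrane metalloproteinase, by 0.79, and the metalloproteinase inhibitor TIMP1 by 0.48. The other probe sets of MMP14 overlapped, at 0.25 to 0.38.

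Interferon-response genes were mostly higher. Of 35 measured, 29 were higher and 6 lower, with a median of 0.35. Above background, 7 were higher without overlap, against 6.43% of all tested genes. IFI44 had 1619 in urogenital GS672.Ug, 644 in lymph node GS683.LALN, 797 in liver GS689.Li, 1428 in adrenal GS694.LAd and 1074 in lung JD1203.Lu, against 285 and 383 in TEM4-18. ISG20, an exonuclease, differed by 1.55, IFIT2 by 1.08, CMPK2 by 1.04, IFI6 by 0.80 and IFIT1 by 0.71, and PARP9 completed the 7. OASL overlapped, at 1.72, as did other probe sets of ISG20 (2.61), IFI44 (1.04) and PARP9 (0.17). None passed the test, and 16 members did not overlap when GS683.LALN was left out. Over all tested genes, those higher without overlap then rose from 877 to 1396, as fewer arrays must separate.

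Cytokines, chemokines and their receptors were higher in 22 of 29 cases, with a median of 0.61. Only IL18 was both above background and higher without overlap, at 0.61. Regardless of level, 5 of the 29 were higher without overlap, against 9.57% of all tested genes. IL1B, an inflammatory interleukin, overlapped: it had 11551, 19310 and 3157 in GS689.Li, GS694.LAd and GS672.Ug and 1941 in JD1203.Lu, but 530 in GS683.LALN, against 755 and 634 in TEM4-18. CXCL12, a chemokine, and its scavenging receptor ACKR3 were lower without overlap (6.9% of the list, against 6.50% of all tested genes). CXCL12 had 275, 152, 1984, 1065 and 2060 in GS672.Ug, GS683.LALN, GS689.Li, GS694.LAd and JD1203.Lu, against 2098 and 2655. ACKR3 ran from 384 in GS689.Li to 1898 in GS672.Ug, against 2280 and 2219.

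Signalling lists split in both directions. On the TGF-beta and BMP list 18 of 33 genes were higher. NOG, SMAD1, ID2 and ACVR1 were higher without overlap (12.1%, against 6.43% of all tested genes). SMAD6, SKI and LTBP1 were lower without overlap (9.09%, against 6.50%). Other probe sets of ID2 (0.20), SMAD6 (0.09), SKI (-0.09 and -0.15) and LTBP1 (-0.38) overlapped. NOG, the secreted BMP antagonist noggin, had 5049 in urogenital GS672.Ug, 2448 in lymph node GS683.LALN, 4457 in liver GS689.Li, 3579 in adrenal GS694.LAd and 1569 in lung JD1203.Lu, against 926 and 842 in TEM4-18. SMAD1, which carries the BMP signal, differed by 1.03, and the inhibitory SMAD6 by -0.62. Among receptor tyrosine kinases and their ligands 20 of 36 were higher. KITLG, the ligand of KIT, EFNB2, an ephrin, and MST1R, the receptor of macrophage-stimulating protein, were higher without overlap at 1.14, 0.75 and 0.60. Their share of 8.33% was near the 6.43% of all tested genes. VEGFC, a lymphatic growth factor, was the 1 member lower without overlap, at -0.44 (2.78%, against 6.50% of all tested genes).

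Of 32 genes of unfolded protein and amino acid stress, 24 were higher, with a median of 0.20. Above background, 7 (21.9%) were higher without overlap, against 6.43% of all tested genes. SLC7A11, the cystine transporter, had 3307, 2322, 2426, 3982 and 2523 in the 5 sublines, against 1610 and 1481, and a log2 difference of 0.86. The endoplasmic reticulum chaperone partner DNAJB9 differed by 0.41, with in vivo values of 3191 to 3742 against 2577 and 2579. Other probe sets of DNAJB9 (0.09 and 0.50) and of TRIB3 (0.31) overlapped. HERPUD1, ATF4 and TRIB3 were highest in JD1203.Lu, with HERPUD1 at 18655 there and 8914 to 9901 in the other 4 sublines, against 7145 and 7712. Cholesterol synthesis genes were evenly split (8 of 16 higher). SC5D, MVK and the regulator SREBF2 were higher without overlap (18.8%, against 6.43% of all tested genes). FDPS, farnesyl diphosphate synthase, was lower without overlap at -0.44 (6.25%, against 6.50%). Other probe sets of SC5D (0.16) and MVK (0.42 and 0.23) overlapped. Those of SREBF2 gave -0.28 with overlap and 0.23 without, against 1.03 for the probe set used.

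Epithelial and mesenchymal identity genes did not shift together across the 5 sublines. Of 22 measured genes on the list of epithelial junctions and splicing, none of them a splicing regulator, 14 were higher, with a median of 0.10. CLDN1, a tight junction claudin, had 1504, 746, 1238, 1225 and 1127 in the 5 sublines, against 283 and 481, at 1.51. Another probe set of CLDN1 overlapped, at 0.88. DSP, the desmosomal plaque protein desmoplakin, overlapped with TEM4-18: it was 7309, 1646 and 3590 in GS689.Li, GS694.LAd and GS672.Ug but 53.7 and 55.0 in GS683.LALN and JD1203.Lu, against 2439 and 2582. All 7 measured keratins were lower by their mean, but only KRT80 without overlap, at -0.56 (14.3%, against 6.50% of all tested genes). Of 24 mesenchymal genes 12 were higher and 12 lower. TWIST1, a transcription factor of mesenchymal cells, and COL6A3, a collagen VI chain, were lower without overlap at -0.35 and -0.75 (8.33%, against 6.50% of all tested genes). S100A4, a calcium-binding protein, was higher by its mean at 1.73 and overlapped. It had 25625, 22364 and 9506 in GS689.Li, GS694.LAd and GS672.Ug, 3761 in JD1203.Lu and 2356 in GS683.LALN, against 2681 and 2496.

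**Figure D3:**
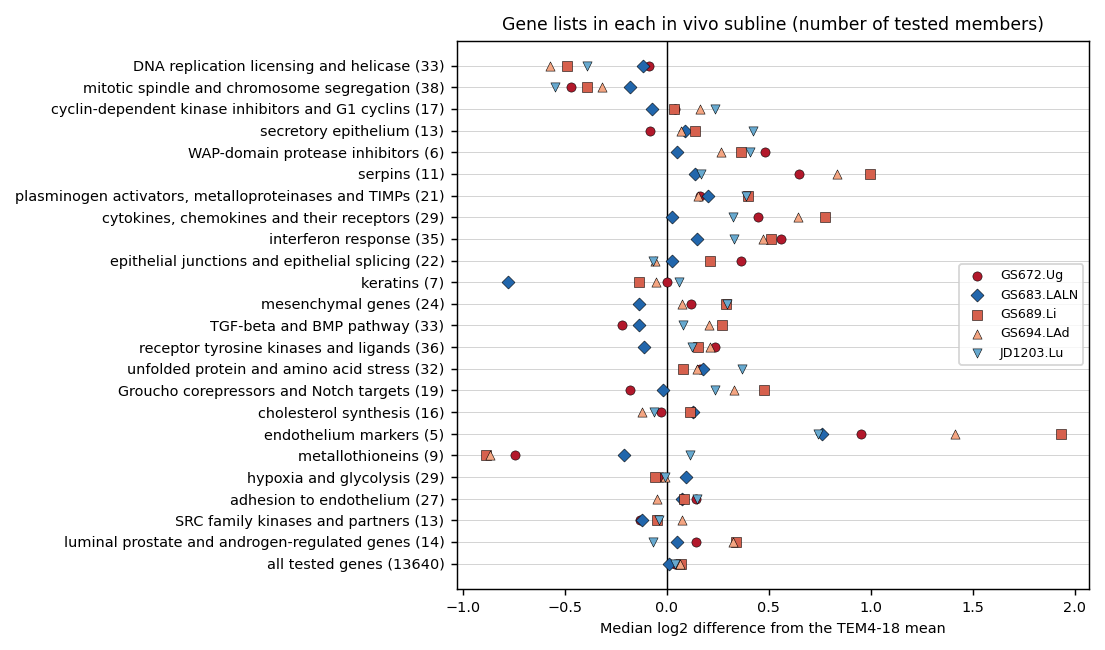
Median log2 difference from the TEM4-18 mean for each gene list (rows, with the number of tested members), with 1 point for each in vivo subline. Replication and mitosis medians are below 0 in all 5 sublines, interferon medians above 0 in all 5, and GS683.LALN is the point nearest to 0 in several lists and stands apart at -0.778 for keratins.

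Markers of other cell types were read on the same arrays. Of the genes read as a check of PC-3 identity, KRT18 ran from 29050 to 38320 and VIM from 61700 to 81720 over all 7 arrays, while the basal keratin KRT5 was at most 223.7. KLK3, a gene of luminal prostate cells on the same check list, went against this identity and was above background on all 7 arrays, at the signals given above. All 5 of the 12 endothelial markers that entered the test were higher in the in vivo sublines by their mean. The list of 12 summed to 5034 to 13410 in the sublines against 3637 and 3639 in TEM4-18. ROBO4 had 1835, 1307, 3307, 2220 and 1592, against 750 and 717, and PECAM1 820 to 1903 against 604 and 777. Other probe sets of PECAM1 overlapped, at -0.14 and 0.1. KDR and ESAM overlapped, with KDR at 318 in GS683.LALN against 998 and 763, and ESAM at 264 in GS672.Ug against 607 and 628. The markers that did not enter the test, CDH5, TEK, TIE1, EMCN, CLDN5, VWF and ERG, were below background on all 7 arrays. CDH5 was at 4.12 to 17.2 in the in vivo sublines and at 46.3 and 88.2 in TEM4-18. Leukocyte markers summed to 4217 to 9726 in vivo against 8447 and 8930. LCP1, the member of highest signal, had 2776 to 8417 in vivo against 7805 and 7225. PTPRC was at most 228.6, and 8 of the 10 markers on the array were below background on all 7 arrays. Hepatocyte markers summed to 1913 to 6171 against 1377 and 2407, with ALB at most 147.1. SERPINA1, a member of that list, had 2860, 3796 and 2537 in GS689.Li, GS694.LAd and GS672.Ug and 188 and 100 in GS683.LALN and JD1203.Lu, against 222 and 252. In the other lists (fibroblasts, erythroid cells, kidney tubule, lung epithelium, adrenal cortex and adipocytes) only PAX8, higher, and FABP4, lower, were above background and without overlap. Other probe sets of PAX8 (0.11 and 0.41) and FABP4 (-0.33) overlapped. Of the fibroblast markers, COL1A1 ran from 3071 to 30752 in vivo against 18572 and 16721. PDGFRA ran from 41.1 in GS683.LALN to 6026 in GS672.Ug against 499 and 433. Both of these overlapped with TEM4-18.

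Genes without overlap were spread unevenly over chromosomes. On chromosome 5, 78 of 618 tested genes (12.6%) were higher in all 5 sublines and 7 (1.13%) were lower, and the median log2 difference of the chromosome was 0.18. Chromosomes 14 and 15 also held more higher than lower genes, with 45 of 448 (10.0%) against 8 and 45 of 443 (10.2%) against 10. Chromosome 21 went the other way, with 2 of 157 higher (1.27%) and 17 lower (10.8%), TMPRSS2 among them, and chromosome 1 held 65 higher and 134 lower genes of 1376. DNA copy number was not measured here, and its part in these shares was not tested.

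**Figure D4:**
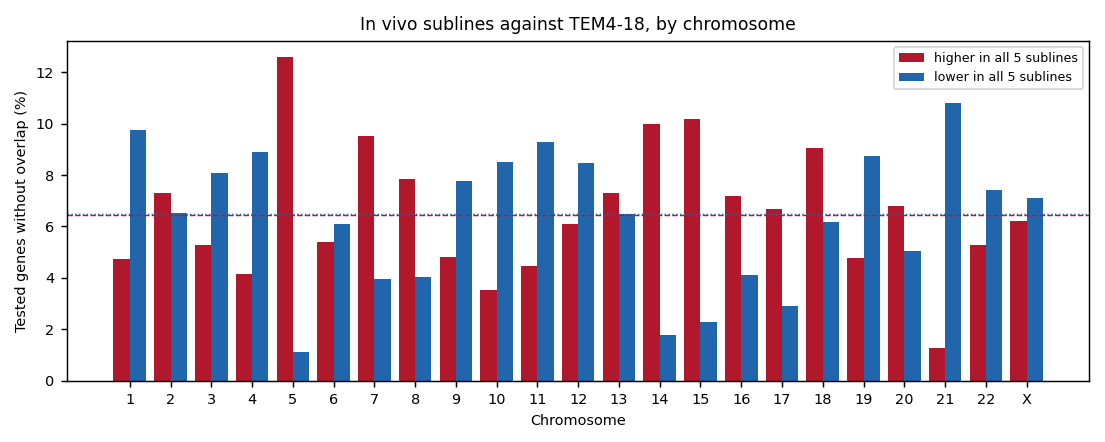
Share of tested genes on each chromosome that were higher (red) or lower (blue) in all 5 in vivo sublines without overlap, with the shares over all chromosomes as dashed and dotted lines (6.43% and 6.50%). Chromosome 5 has the tallest red bar (12.6%) and the shortest blue one (1.13%), and chromosome 21 the reverse pattern.

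Within the in vivo group the 2 lineages differed from each other. GS689.Li, GS694.LAd and GS672.Ug, which descend from PC-3 without TEM4-18, differed from GS683.LALN and JD1203.Lu, grown from TEM4-18, at an adjusted p under 0.05 in 513 of 13640 genes (3.76%) in a limma model of 3 groups. Among the genes higher in all 5 the share was 31 of 877 (3.53%), and among those lower in all 5 it was 12 of 887 (1.35%). PI3 was 1.38 ± 0.27 higher in the PC-3-descended sublines (adjusted p = 0.0295), and AADACP1 was 1.75 ± 0.27 lower there (a difference of -1.75, adjusted p = 0.0115). The liver and adrenal lines have a common parent, and the count was 171 with them averaged and 43 with JD1203.Lu placed among the PC-3-descended lines, as its source name would have it. With 1 array left out it ran from 152 (without GS694.LAd) to 1143 (without GS672.Ug). GS683.LALN was the in vivo subline nearest to TEM4-18 for 35.0% of the higher genes and 28.6% of the lower genes, against 26.4% of all tested genes.

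Other probe sets of the same genes, which the choice did not use, went mostly the same way. Of 1001 other probe sets of the higher genes 766 were higher, and 230 (23%) were higher in all 5 sublines without overlap, against 6.84% of such probe sets of all tested genes. Of 1163 other probe sets of the lower genes 920 were lower, and 363 (31.2%) were lower without overlap, against 8.42%. These probe sets were read from the same 7 RNA samples. At the limits of the choice, GSDMC was included with a lowest in vivo signal of 540.0 and PDE5A was left out at 536.8, while TNFRSF12A was included with a log2 difference of 0.17 and DCTD was left out with 0.14.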

How the data were processed

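Total RNA of 7 cultures was hybridised to 1-colour Affymetrix arrays. The deposited table holds linear intensity values that the authors obtained with MAS5, per the submitters' processing notes. The sources used here do not give its version. Each array had been scaled, since the mean of the middle 96% of probe sets was 1500.2 on all 7, and array medians ran from 239.08 to 297.25. The table holds 54675 probe sets, of which 41097 have 1 gene symbol, 1801 several and 11777 none in the platform annotation, which can be old. Probe sets with 1 symbol were used, the one of highest mean for each gene, and genes whose mean was below the 40th percentile were left out, which left 13640.

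Signals were tested as log2(value + 46.942), the offset being the 20th percentile of all values, so that fold changes of low genes are understated. The test was limma (R 4.3.3, limma 3.58.1) with an intensity trend, 2-sided, with Benjamini-Hochberg adjustment over all tested genes and a threshold of 0.05. ± gives the standard error. The test was checked on simulated data. A gene does not overlap where all 5 in vivo sublines lie on one side of both TEM4-18 arrays, and the higher side had to reach 536.9 on every array of it. Named genes are the 15 of widest gap in each direction and, on each list, the 2 of largest difference and those without overlap. Marker genes, neighbours of AADAC and genes at the limits of the choice are named beside these, and the inhibitors CDKN1B, CDKN1C, CDKN2A, CDKN2B and CDKN2D after their values were seen. The members and the gene lists were chosen with earlier results of these data known. Sequences are from the RefSeq tables on GRCh38.p14, where MCM5 and PI3 have no entry. By their Entrez gene identifiers, 13621 tested genes were placed on chromosomes. The number of arrays limits the precision. Alternatives changed the offset, filter, probe set rule, scaling, trend, background and the arrays used.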

Additional observations from a re-analysis of the deposited data

Results flagged for a closer look

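Among 112 genes and 23 list medians of the in vivo sublines, 3 had 1 subline far from the other 4. HERPUD1 was 18655 in JD1203.Lu and 8914 to 9901 in the others, and ATF4 was 25625 in JD1203.Lu and 15303 to 16503 in the others. The keratin median was -0.778 in GS683.LALN and -0.137 to 0.06 in the others. Chance alone would put about 1 in 20 groups past this limit.

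The PC-3-descended sublines differed from the TEM4-18-derived ones by the limma test of the difference itself in 19 of these genes, many of them chosen for their size, against 3.76% of all tested genes. With JD1203.Lu placed by its source name, that test called 43 of all genes in place of 513. The log2 difference, PC-3-descended minus TEM4-18-derived, was positive for DSP (5.14), CD24 (4.24), SERPINA1 (4.04), KDR (2.88), S100A4 (2.54), SERPINB5 (2.31) and FST (2.21). It was also positive for PI3 (1.38), ISG20 (1.26), NOG (1.12), UBE2QL1 (0.90), SERPINB8 (0.85) and MST1R (0.75). It was negative for AADACP1 (-1.75), DLGAP5 (-1.54), CUX1 (-0.86), MT1F (-0.86), GNG2 (-0.83) and COL6A3 (-0.62). By the probe set used for each, PI3, AADACP1, UBE2QL1, ISG20, NOG, SERPINB5, SERPINB8, MST1R, CUX1, GNG2 and COL6A3 of these genes still lay on one side of both TEM4-18 arrays in all 5 in vivo sublines. Other probe sets of ISG20, CUX1 and GNG2 overlapped, as given above. DSP, CD24, SERPINA1, KDR, S100A4, FST, DLGAP5 and MT1F overlapped with TEM4-18.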

How the results depend on the processing

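No paired analysis was possible because the in vivo sublines carry no replicate numbers in the labels that match those of TEM4-18. Called genes, 0 as reported, were 4 with no offset (PI3, AADAC, ZNF415 and FKBP1B) and 3 with median centring (PI3, ZNF415 and FKBP1B), and ran from 0 to 14 with 1 array left out, 14 being without GS683.LALN (PI3, UBE2QL1, TMEM200A, AGR2, ZNF415, FKBP1B and TFF1 among them). With 1 array left out, genes without overlap ran from 1020 to 1396 higher and from 1035 to 1507 lower, as fewer arrays must separate: 1396 and 1336 without GS683.LALN, 1334 and 1413 without the first TEM4-18 array, and 1391 and 1507 without the second. The lineage count of 513 was 132 with no intensity trend, 171 with GS689.Li and GS694.LAd averaged, 207 with the TEM4-18 duplicates averaged and 43 with JD1203.Lu as PC-3-descended, an alternative chosen after seeing the data. It ran from 152 to 1143 with 1 array left out: 1143 without GS672.Ug, 174 without GS689.Li, 152 without GS694.LAd, and 206 and 210 without the first and the second TEM4-18 array. The median of all genes, 0.0306, became 0.00108 with a filter at the 60th percentile, -0.0297 with median centring and 0.00557 with quantile normalization. With the stricter filter, which tests fewer members, the WAP-domain median of 0.138 became -0.0431 and the serpin median of 0.398 became 0.884. The metallothionein median of -0.436 became 0.0525 without probe sets ending in _x_at. The median of hypoxia and glycolysis, 0.0375, became -0.0392 with the mean of probe sets and -0.0228 with median centring. The SRC family median of -0.06 became -0.162 with the mean of probe sets, where CD44 reversed to 0.012. With 1 in vivo array left out the WAP-domain median reached 0.378 (GS683.LALN), the SRC family median -0.145 (GS689.Li) and the interferon members higher without overlap 16 (GS683.LALN). With the first or the second TEM4-18 array left out, medians were -0.0462 and 0.334 for WAP-domain genes, 0.15 and 0.00427 for proteases, and -0.0294 and 0.125 for adhesion genes, and replication members lower without overlap numbered 17 without the first. The cause was not tested where the construction does not give it. Medians of the TGF-beta, mesenchymal, cholesterol, cyclin-dependent kinase inhibitor, receptor tyrosine kinase and luminal lists lay near 0 and changed sign under at least 1 alternative. Of 112 genes followed through all alternatives, CD44 alone changed sign. Low signals limit TMPRSS2, PIDD1 and TMEM170B in the in vivo sublines and AADAC in TEM4-18. Both TEM4-18 signals were also below the background of 536.9 for PI3, AADACP1, MAGEA6, TMEM200A, ZNF415, NPY1R, DNER and TBC1D8B. The sizes of these differences therefore rest on low TEM4-18 signals.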

Other observations

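Metallothioneins, small proteins that bind zinc, were lower in 7 of 9 measured cases, with a median log2 difference of -0.44, but the median was 0.05 without probe sets ending in _x_at, which are shared between these near-identical genes. MT2A had signals of 57302 in urogenital GS672.Ug, 67638 in lymph node GS683.LALN, 49537 in liver GS689.Li, 48524 in adrenal GS694.LAd and 75675 in lung JD1203.Lu, against 78182 and 81114 in TEM4-18, and was the 1 member without overlap. On the list of hypoxia and glycolysis 16 of 29 genes were higher. SLC2A1, the glucose transporter GLUT1, had 1067, 1229, 1245, 1426 and 1375 in the 5 sublines, against 765 and 755, and a log2 difference of 0.70 (limma adjusted p = 0.382).

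Genes of adhesion to endothelium were not moved as a list, with 16 of 27 higher. Above background and without overlap, 3.7% were higher and 3.7% lower, against 6.43% and 6.50% of all tested genes. CD9, a tetraspanin, was higher in all 5 sublines (21518 to 33178 against 19944 and 19289), while another probe set of CD9 overlapped at -0.05. CD44, a hyaluronan receptor, was lower in all 5 (24440 to 26796 against 27245 and 28182). Its difference of -0.13 was 0.01 with the mean of its probe sets. CD24, a mucin-like surface protein, overlapped: it had 20215, 26202 and 15997 in GS689.Li, GS694.LAd and GS672.Ug and 3645 in JD1203.Lu, but 270 in GS683.LALN, against 1757 and 1589. On the list of SRC family kinases and partners 9 of 13 genes were lower. SRC and FYN were lower without overlap at -0.51 and -0.46 (15.4%, against 6.50% of all tested genes). Other probe sets of FYN overlapped, at 0.13, -0.64, -0.40 and 0.28. Those of SRC gave -0.16 with overlap and -0.88 without. No gene of these lists passed the test.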
